A study of Mus musculus with 8 samples.

Results

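The BCL2 family decides whether mitochondria release cytochrome c and start apoptosis. Anti-apoptotic members (Bcl2, Bcl2l1, Bcl2l2 and Mcl1) bind and hold their killing relatives, effectors (Bak1, Bok and the p53 target Bax) can open the outer mitochondrial membrane, and BH3-only proteins (Bcl2l11, Bid, Bad and Bmf) carry stress signals that release or activate the effectors. Germ cells of the embryo are known for their readiness to die through this route when they are misplaced, damaged or deprived of survival factors. The 10 genes described here were taken from a list of family members that are not counted among the classical p53 targets, out of 21444 genes with at least 1 count. All 10 had counts; 8 passed the filter on low counts and were tested, and Bcl2 and Bak1 did not pass it.

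RNA was measured in primordial germ cells of mouse embryos at embryonic day 11.5, on a mixed C57BL/6 and 129 background. The cells were flow-sorted by a dPE_Oct4 GFP reporter. Both groups carry Blimp1Cre, a Cre recombinase driven by control sequences of the germ cell determinant Blimp1, so Cre itself is shared by all 8 libraries. The 4 Control libraries have the genotype Blimp1Cre;Prmt5flox/+, with 1 floxed Prmt5 allele, and the other 4, Prmt5 KO, have Blimp1Cre;Prmt5flox/flox. The enzyme Prmt5 methylates arginines of histones and of the splicing machinery. RNA was extracted with a PicoPure kit, 50 pg of total RNA entered each library by a published low-input protocol, and sequencing used a SOLiD instrument. Whether libraries stem from different embryos, and how many cells or embryos entered each, is not in the labels. The p-values thus measure only the spread among these 8 libraries, part of which may be technical.

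Library totals ran from 1811436 to 6549502 gene counts, and the shallowest were Control 2 and 3. The targeted gene Prmt5 had 89.4 to 172 CPM (counts scaled to a common library size) across Control and 26.4 to 40.5 CPM across Prmt5 KO, with no overlap (log2 fold change -1.95, edgeR adjusted p = 0.0388). Removing 1 library kept its log2 fold change between -2.11 and -1.82, but only the removal of Control 1 kept the call. All 18 markers of primordial germ cells on the list had counts in every library, and their summed level was 4664 to 5454 CPM in Control and 4749 to 6033 CPM in Prmt5 KO. Of 18 markers of somatic gonad and mesonephros, 16 had counts and Foxl2 and Amh were at 0 throughout. Their summed level was 777 CPM in Prmt5 KO 1 and 148 to 252 CPM in the other 7 libraries. Prmt5 KO 1 thus stood apart for this sum, but not for every marker. Mfge8 alone was at 114 to 180 CPM across all libraries. In Prmt5 KO 1 Acta2 (208 CPM) and Col3a1 (115 CPM) were high, while Pax8 (10.3 CPM) was within the range of the other libraries.

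None of the 8 tested family members was called in Prmt5 KO against Control at an adjusted p of 0.05 in edgeR, where 0.0273% of all 10990 genes tested were called. At an unadjusted p under 0.05 the edgeR test singled out 1 member, Bcl2l2, which was lower (by that measure 3.69% of all genes tested were lower and 4.47% higher, 8.15% together). DESeq2, which called 1.02% of the genes it tested, and limma voom, which called 1 of 10990 genes, called 0 members. Both found 0 members with an unadjusted p under 0.05. The share of all genes under that level is given here for edgeR only. Of the 8 tested members, 3 had a log2 fold change above 0 and 5 below 0, with a median of -0.29 beside 0.03 over all genes tested. For none of the 10 members did the libraries of the groups separate, while 4.9% of all genes tested had groups that did not overlap (2.63% higher and 2.27% lower in Prmt5 KO). The intervals of the fold changes, given below, are wide for the scarce members and narrow for Mcl1 and Bid, so a missed threshold does not show that levels were equal. In bulk samples like these, a change in the number of cells that express a gene and a change in RNA per cell cannot be told apart.

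**Figure D1:**
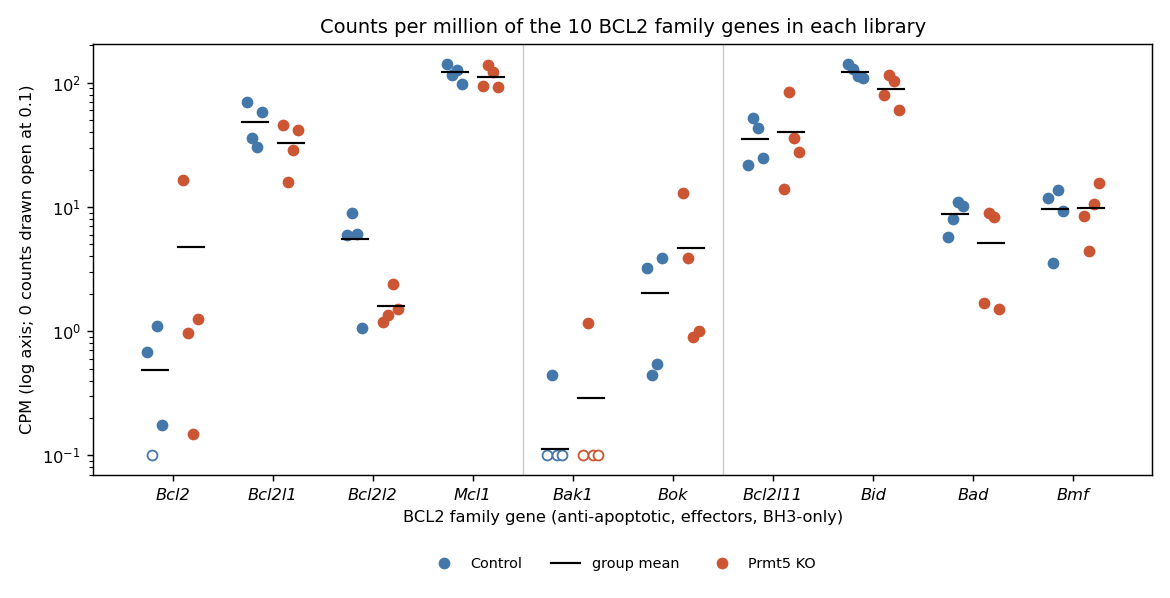
CPM of the 10 BCL2 family genes in each library (log axis; blue Control, red Prmt5 KO, bars are group means of 4 libraries, open points are 0 counts drawn at 0.1). For every gene the groups overlap, and the Prmt5 KO 1 library stands above the rest for Bcl2 (16.5 CPM) and Bok (13 CPM).

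Compared per transcript length, the members covered a wide range of levels, and Bid and Mcl1 led. Bid, a BH3-only protein that caspase cleavage turns into an activator of the effectors, had a mean of 44.0 CPM per kilobase over the 8 libraries (range 25.1 to 58.4). Mcl1, a short-lived anti-apoptotic protein, had a mean of 34.1 (27.1 to 41.7) on the same scale. Next came Bcl2l1, which encodes the anti-apoptotic Bcl-xL, at 16.9 (6.57 to 29.0), and Bcl2l11, which encodes the BH3-only protein Bim, at 7.54 (2.78 to 16.7). Bad, a BH3-only protein held inactive by survival kinases, was at 4.77 (1.03 to 7.56) CPM per kilobase. Below it were the effector Bok at 2.29 (0.304 to 8.86) and Bmf, a BH3-only protein kept on the cytoskeleton, at 2.08 (0.769 to 3.33).

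The 3 lowest members were 2 anti-apoptotic genes and 1 effector. Bcl2l2, which encodes Bcl-w, had a mean of 0.929 CPM per kilobase (0.277 to 2.34). Bcl2, the founding anti-apoptotic gene of the family, was at 0.363 (0 to 2.30), and Bak1, the effector that works beside Bax in most tissues, at 0.0843 (0 to 0.487). Every pair of neighbours in this order overlapped in range over the libraries. Within libraries the order was steadier, as Mcl1 was above Bcl2l1 in 8 of 8 libraries and Bid above Mcl1 in 7 of 8, but Bok was above Bmf in only 3 of 8. Reads of this protocol need not be spread evenly along a transcript, which limits levels per length.

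**Figure D2:**
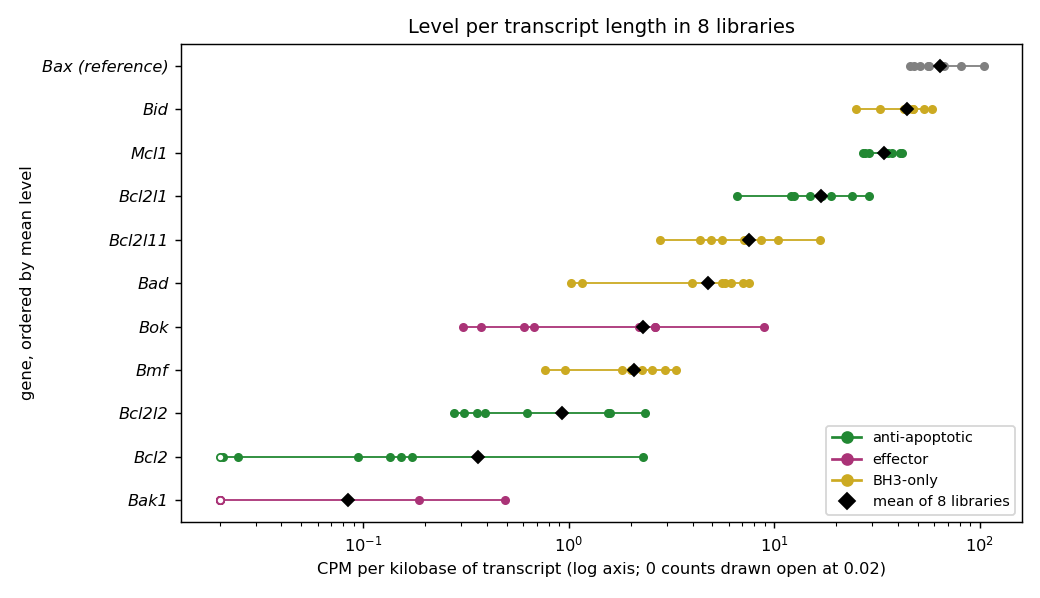
Level of each member per transcript length in the 8 libraries (CPM per kilobase, log axis; points are libraries, diamonds are means, lines span the range, open points are 0 counts drawn at 0.02), with Bax in grey as a reference. Bid (mean 44.0) and Mcl1 (mean 34.1) are the highest members and Bak1 (mean 0.0843) the lowest.

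The promoters of the highest and lowest members are shown because the cells were taken in the period of global DNA demethylation, and CpG dinucleotides are where mouse DNA is methylated. Each line gives the 150 bases before the annotated RefSeq start (GRCm38.p6), 5′ to 3′ on the gene's strand, with every CpG in capitals. The windows are chr6:120916825-120916974 (minus strand) for Bid, chr3:95658571-95658720 (plus) for Mcl1, chr1:106714291-106714440 (minus) for Bcl2 and chr17:27028628-27028777 (minus) for Bak1.
Bid: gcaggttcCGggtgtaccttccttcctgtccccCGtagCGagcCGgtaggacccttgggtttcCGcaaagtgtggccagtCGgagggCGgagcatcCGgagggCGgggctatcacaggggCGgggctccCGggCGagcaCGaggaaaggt
Mcl1: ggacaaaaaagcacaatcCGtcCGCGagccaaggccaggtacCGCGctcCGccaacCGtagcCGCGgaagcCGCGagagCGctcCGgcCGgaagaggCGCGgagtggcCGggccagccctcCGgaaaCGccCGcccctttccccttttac
Bcl2: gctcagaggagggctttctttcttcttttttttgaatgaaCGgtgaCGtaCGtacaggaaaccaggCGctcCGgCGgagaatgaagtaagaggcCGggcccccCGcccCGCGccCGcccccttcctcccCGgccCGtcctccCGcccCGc
Bak1: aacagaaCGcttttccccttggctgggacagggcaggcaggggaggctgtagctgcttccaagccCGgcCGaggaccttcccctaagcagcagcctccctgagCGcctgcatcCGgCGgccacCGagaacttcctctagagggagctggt

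These stretches hold 13 CpG in Bid, 20 in Mcl1, 15 in Bcl2 and 7 in Bak1. The Bak1 window precedes a RefSeq start inside the span of the transcript counted here (27019810 to 27029009, minus strand). It is thus not upstream of that transcript's own start. The last bases of the Bid window also lie inside the transcript counted for Bid, which starts at 120916836 on the minus strand. RefSeq promoter windows of 300 bases (250 before to 50 after the start) were found for all 10 members, 16 windows in all. Their CpG counts ran from 1 to 44, and 14 of the 16 were above the median of 7 over 32851 promoters. The scarce gene Bcl2 had the most with 44, while the abundant Mcl1 had 33 and Bid 22, and the scarce Bak1 had 11. DNA methylation was not measured in these libraries.

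The anti-apoptotic members were led by Mcl1, and their summed CPM per kilobase was 72.4, 51.39, 51.45 and 52.99 in the Control libraries and 49.2, 47.8, 48.4 and 44.8 in the Prmt5 KO libraries. All Prmt5 KO sums were below all Control sums, which is given as a description with no test; the lowest Control and highest Prmt5 KO sums lie close together. The sum of the 4 BH3-only members was 69.3, 70.1, 66.1 and 58.9 in the Control libraries and 38.5, 71.2, 57.8 and 35.0 in the Prmt5 KO libraries, with means of 66.1 and 50.6 and overlapping groups. The sum of Bak1 and Bok had means of 1.42 in Control and 3.32 in Prmt5 KO, also overlapping, with the highest value of 8.86 in Prmt5 KO 1. Mcl1 (GRCm38 chromosome 3, 95658788 to 95663176, plus strand, 3 exons) was at 143, 117, 127 and 98.5 CPM in Control 1 to 4 and at 94.6, 139, 122 and 92.7 CPM in Prmt5 KO 1 to 4. The groups overlapped almost completely. Its log2 fold change was -0.11 with a standard error of 0.211 and a 95% interval from -0.57 to 0.34 (edgeR adjusted p = 0.946), which keeps the fold between 0.675 and 1.27. Mcl1 made up 54.4% to 85.2% of the summed CPM per kilobase of the 4 anti-apoptotic members in a library, highest in Prmt5 KO 2. Without Prmt5 KO 1 and Prmt5 KO 4 the log2 fold change of Mcl1 was 0.11.

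Bcl2l1 (chromosome 2, 152780668 to 152831728, minus strand, 3 exons) was at 70.1, 36.2, 30.2 and 57.7 CPM in Control 1 to 4 and at 45.8, 15.9, 29.0 and 41.4 CPM in Prmt5 KO 1 to 4. Every Prmt5 KO library lay below the Control mean of 48.5 ± 18.6 CPM (SD, n = 4), but 2 Control libraries were inside the range of Prmt5 KO. Its log2 fold change was -0.57 with a standard error of 0.395 and a 95% interval from -1.42 to 0.29 (edgeR adjusted p = 0.755). The value stayed below 0 in all 19 alternative fits, from -1.12 (without Prmt5 KO 1 and Prmt5 KO 4) to -0.33, and was not called in any of them.

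Bcl2l2 (chromosome 14, 54883504 to 54888095, plus strand, 3 exons) had the lowest unadjusted p of the family, on few counts. Its counts were 35, 20, 11 and 6 for the 4 Control libraries in order, and 7, 7, 16 and 6 for those of Prmt5 KO. In CPM these are 5.92, 8.93, 6.03 and 1.06 in Control and 1.18, 1.36, 2.38 and 1.5 in Prmt5 KO. Of the Control libraries 3 were above every Prmt5 KO library, and Control 4 was below all of them. The log2 fold change was -1.73 with a standard error of 0.729 and a 95% interval from -3.30 to -0.16 (edgeR adjusted p = 0.577). Over the 19 alternatives the log2 fold change ran from -2.09 to -1.11, with adjusted p from 0.504 to 0.912 in edgeR, DESeq2 or limma. Of the transcript, 13.9% overlaps exons of an overlapping gene model, Gm20521, on the same strand, so reads there cannot be assigned to 1 gene.

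Bcl2 (chromosome 1, 106538178 to 106714274, minus strand, 2 exons) was scarce outside 1 library. Its counts were 4, 0, 2 and 1 for the 4 Control libraries in order, against 98, 5, 1 and 5 for those of Prmt5 KO. The count of 0 in Control 2 allows up to 1.34 CPM, and the level in Prmt5 KO 1 was 16.5 CPM. Prmt5 KO 1 is also the library with the high somatic marker sum (777 CPM); the part of such cells in the Bcl2 count was not tested. Bcl2 was not tested in the filtered fit. With no filter its log2 fold change was 3.32 (standard error 1.3, edgeR adjusted p = 0.461, where 0.0326% of 21444 genes were called).

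The 2 effector members were scarce, while the p53 target Bax, the third effector, had a higher mean level per length than any member (63.7 CPM per kilobase). Bak1 (chromosome 17, 27019810 to 27029009, minus strand, 6 exons) had 1 count in Control 2, 6 counts in Prmt5 KO 2 and 0 in the other 6 libraries. A count of 0 allows between 0.446 and 1.65 CPM in these libraries. Of the Bak1 transcript 25.7% overlaps exons of Ggnbp1 on the opposite strand, and how the counting treated strand is not known here. Bax, measured the same way, was at 48.5, 44.2, 39.5 and 70.2 CPM in Control 1 to 4 and at 41.5, 91.1, 57.7 and 49.1 CPM in Prmt5 KO 1 to 4. On the scale per length Bax was above Bak1 and Bok in 8 of 8 libraries and above Bid in 5 of 8.

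Bok (chromosome 1, 93685660 to 93695764, plus strand, 5 exons), an effector that the anti-apoptotic proteins restrain poorly, had counts of 19, 1, 1 and 22 for the 4 Control libraries in order, and of 77, 20, 6 and 4 for those of Prmt5 KO. That is 3.21, 0.446, 0.549 and 3.87 CPM in Control and 13, 3.88, 0.893 and 0.997 CPM in Prmt5 KO. The log2 fold change of 1.11 (standard error 0.953, 95% interval -0.95 to 3.16, edgeR adjusted p = 0.809) rested on Prmt5 KO 1 and was -0.17 without it. As for Bcl2, the high library is the one with the high somatic marker sum, and the part of that in Bok was not tested.

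Bid (chromosome 6, 120891930 to 120916836, minus strand, 7 exons) led the BH3-only members, at 141, 129, 114 and 109 CPM in Control 1 to 4 and at 79.0, 114, 103 and 60.6 CPM in Prmt5 KO 1 to 4. All 4 Prmt5 KO libraries lay below the Control mean of 123 ± 14.9 CPM (SD, n = 4), and only Prmt5 KO 2 reached into the Control range. The log2 fold change was -0.46 with a standard error of 0.232 and a 95% interval from -0.96 to 0.04 (edgeR adjusted p = 0.651). It stayed below 0 in all 19 alternatives, from -0.60 to -0.18, the latter without Prmt5 KO 1 and Prmt5 KO 4. The transcript with the highest total is annotated for nonsense-mediated decay, and 26.0% of it overlaps exons of Bcl2l13, a family member on the opposite strand. The protein-coding Bid-201, which has no such overlap and has some bases of its own, had counts equal to 89.9% to 100% of those of the transcript used, and with the longest coding transcript as gene value the log2 fold change was -0.47. Bid made up 66.6% to 85.0% of the summed CPM per kilobase of the 4 BH3-only members in a library.

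Bcl2l11 (chromosome 2, 128126039 to 128162547, plus strand, 4 exons) was at 21.8, 52.2, 43.3 and 24.8 CPM in Control 1 to 4 and at 14, 83.9, 35.7 and 27.9 CPM in Prmt5 KO 1 to 4. Prmt5 KO libraries were both the highest and the lowest of the 8. The log2 fold change was 0.20 (standard error 0.499, 95% interval -0.88 to 1.27, edgeR adjusted p = 0.964), and it was -0.44 without Prmt5 KO 2.

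Bad (chromosome 19, 6941861 to 6951899, plus strand, 4 exons) was at 5.75, 8.04, 11 and 10.2 CPM in Control 1 to 4 and at 1.69, 8.91, 8.33 and 1.5 CPM in Prmt5 KO 1 to 4. Prmt5 KO 1 and 4, with 10 and 6 counts, were below all other libraries, and Prmt5 KO 2 and 3 were inside the Control range. The log2 fold change was -0.76 (standard error 0.725, 95% interval -2.33 to 0.80, edgeR adjusted p = 0.834). Without both of those libraries it was -0.0091. Of the transcript 35.6% overlaps exons of Gpr137 on the opposite strand, so the value is uncertain.

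Bmf (chromosome 2, 118528757 to 118549687, minus strand, 5 exons) was at 11.8, 3.57, 13.7 and 9.32 CPM in Control 1 to 4 and at 8.44, 4.46, 10.6 and 15.5 CPM in Prmt5 KO 1 to 4. Its group means were 9.61 ± 4.41 and 9.73 ± 4.58 CPM (SD, n = 4 each), with a log2 fold change of 0.01 (standard error 0.620, 95% interval -1.32 to 1.35, edgeR adjusted p = 0.997). The sign changed with the library left out, from -0.29 without Prmt5 KO 4 to 0.26 without Prmt5 KO 2.

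**Figure D3:**
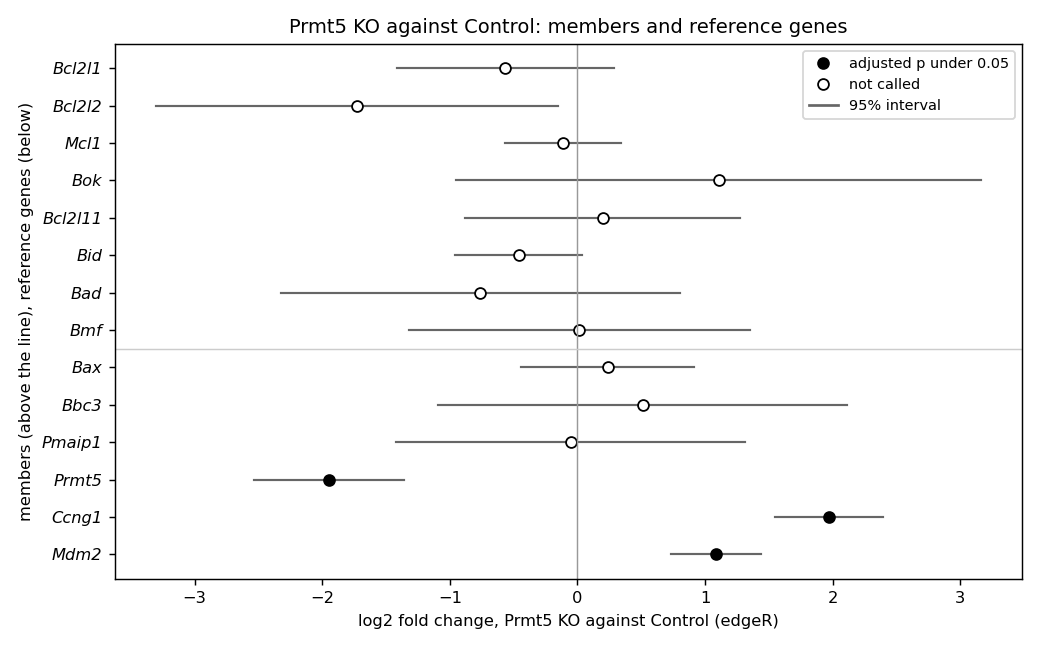
Log2 fold change of Prmt5 KO against Control with 95% intervals (edgeR, 4 against 4 libraries; filled points passed an adjusted p of 0.05) for the 8 tested members, and for Bax, Bbc3, Pmaip1, Prmt5, Ccng1 and Mdm2 as references. The interval of Bcl2l2 lies below 0 without passing the adjusted threshold, and Prmt5, Ccng1 and Mdm2 are the filled points.

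**Figure D4:**
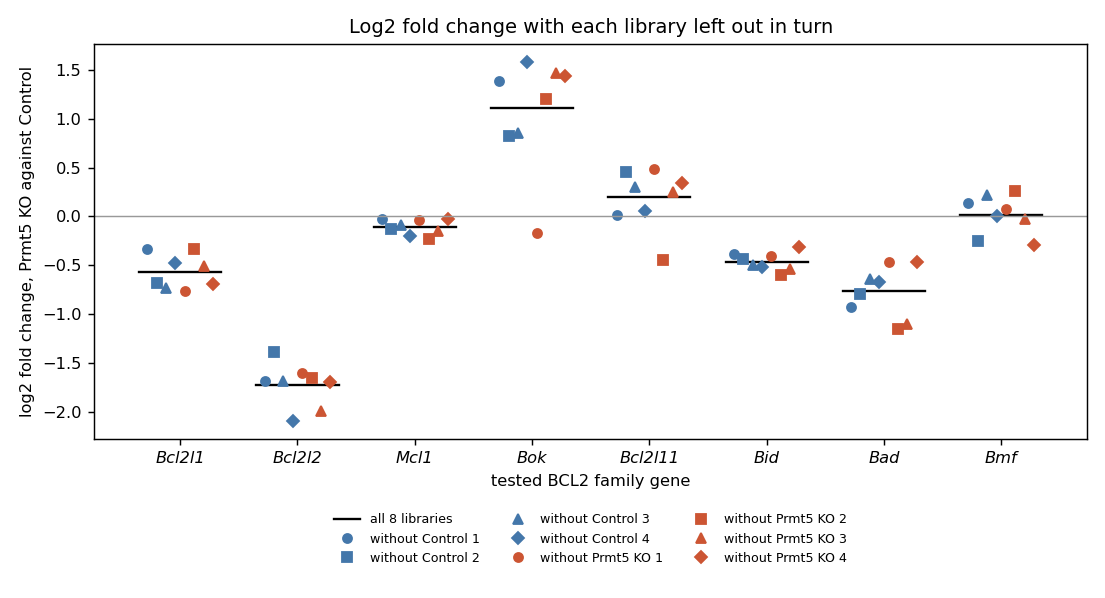
Log2 fold change of the 8 tested members when each library was left out in turn (blue, a Control library left out; red, a Prmt5 KO library left out; bars, all 8 libraries). Bcl2l1, Bcl2l2, Mcl1, Bid and Bad stay below 0 throughout, while Bok turns to -0.17 without Prmt5 KO 1 and Bcl2l11 to -0.44 without Prmt5 KO 2.

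Known p53 targets were measured in the same libraries for reference. Ccng1, which encodes cyclin G1, and Mdm2, the ubiquitin ligase of p53, had log2 fold changes of 1.97 and 1.09 (edgeR adjusted p = 0.00137 and 0.0490). The Ccng1 call held with each library left out in turn, though not without both Control 2 and Control 3 (log2 fold change 1.83), and the Mdm2 call was lost each time, with log2 fold changes from 1.03 to 1.16. The 3 family genes taken here as p53 targets, Bax, Bbc3 and Pmaip1, were not called. Bax was at 0.24 (95% interval -0.44 to 0.92). The BH3-only gene Bbc3, which encodes Puma, was at 0.51 (-1.09 to 2.11). Pmaip1, which encodes Noxa, was at -0.05 (-1.42 to 1.31). The edgeR adjusted p of the 3 were 0.904, 0.917 and 0.991 in that order. The value of Bax was -0.034 without Prmt5 KO 2, and that of Pmaip1 was 0.12 without Control 2. The difference between members and p53 targets was not tested.

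Genes that act with the family were counted from lists. Of 15 other BCL2 family genes, 11 had counts and 7 were tested; 0 were called in edgeR, DESeq2 or limma voom and 0 had an unadjusted p under 0.05 in any of the 3, with a median log2 fold change of -0.04. Bcl2l14, whose counts were too low to be tested, had 1.65 to 9.47 CPM in Control and 0.388 to 1.18 CPM in Prmt5 KO. These values rest on 100 and 15 counts in all. Its groups did not overlap, as was the case for 4.9% of all genes tested. Of 24 partners and keepers of BCL2 proteins 22 were tested and 0 were called by any of these tools, with a median of 0.05. In edgeR 2 of them had an unadjusted p under 0.05, beside 8.15% of all genes tested. These were Tpt1, which encodes a partner of Mcl1, at 0.42, and Casp8, the protease that cleaves Bid, at -2.26. Casp8 had 0.528 to 10.7 CPM across Control and 0.249 to 2.83 CPM across Prmt5 KO. The value of Casp8 was -3.08 without Prmt5 KO 3. DESeq2 found both at that level, and limma voom found Tpt1.

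Of 20 enzymes that modify or degrade BCL2 proteins, all 20 were tested and 0 were called by the 3 tools, with a median log2 fold change of 0.10. March5, a ubiquitin ligase of the outer mitochondrial membrane, was at 0.86 (edgeR adjusted p = 0.469), the 1 gene of that list under 0.05 unadjusted in edgeR, DESeq2 and limma voom. Over all genes tested, 8.15% were under that level in edgeR. Akt1, a kinase that inactivates Bad, was at -0.36 (edgeR adjusted p = 0.677), with groups that did not overlap. Of 21 transcription factors and survival signals 15 were tested and 0 were called by the 3 tools, with a median of 0.23. Rela, a subunit of NF-kB, was at 1.66 (edgeR adjusted p = 0.540), or 0.68 without Prmt5 KO 4 and -0.19 without Prmt5 KO 1 and Prmt5 KO 4. It was the 1 gene of its list under 0.05 unadjusted in edgeR and DESeq2, but in limma voom it was at 0.91 and missed that level, and the 1 gene found there was Trp53, which encodes p53 (0.38, limma adjusted p = 0.553). Ddit3, a stress factor known to raise Bcl2l11, was at 1.12 (adjusted p = 0.672), or 0.71 without Prmt5 KO 4 and 0.16 without Prmt5 KO 1 and Prmt5 KO 4. Downstream, of 12 genes of the mitochondrial death route 11 were tested and 0 were called by the 3 tools; the median log2 fold change was -0.17. In edgeR 3 of the 11 had an unadjusted p under 0.05, beside 8.15% of all genes tested. Diablo, which encodes a protein released from mitochondria that blocks caspase inhibitors, had 92.0 to 144 CPM in Control and 17.2 to 70.9 CPM in Prmt5 KO (log2 fold change -1.15, edgeR adjusted p = 0.418). The Diablo transcript counted is annotated for nonsense-mediated decay, and values of its coding transcripts are not given here. Birc5, which encodes survivin, had 76.8 to 121 CPM in Control and 135 to 212 CPM in Prmt5 KO (0.60, edgeR adjusted p = 0.481). For these 2 genes the groups did not overlap, beside 4.9% of all genes tested. Among the tested genes of the lists above, the same held for Akt1 (lower), Vdac2 and Foxo3 (both higher in Prmt5 KO). Apaf1, the scaffold of the apoptosome, was at 1.19 with overlapping groups (edgeR adjusted p = 0.541). At the unadjusted level DESeq2 found Diablo, Birc5 and Apaf1, and limma voom found Diablo and Birc5.

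Counts of other annotated transcripts of a gene depend on where along it the reads lay. For the 5 members with further transcripts of at least 20 counts on average, 14 ratios of their counts to those of the transcript with the highest total, called shares here, were compared between the groups. None passed, with a lowest unadjusted p of 0.0571 and adjusted p of 0.8 (two-sided exact permutation over 70 assignments, whose smallest p is 0.0286), and no share separated the groups. A single share at that smallest p could not pass after adjustment for 14, so this does not show that the shares were alike. The transcripts share reads, so the shares are not ratios of molecules. Several transcripts, such as Bid-201, Bid-203, Bid-205 and Bcl2l1-203, also have bases outside the one used, so their counts are not a subset of its counts, and Bad-202 reached 104% of Bad-201 in Prmt5 KO 2.

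The first coding exon of Bcl2l1 (676 bases, 152829427 to 152830102) makes up 28.0% of its transcript. It is the only stretch that Bcl2l1-203 shares with the transcript used, though Bcl2l1-203 also has an upstream exon of its own where some of its counts may lie. Counts of Bcl2l1-203 came to 20.7%, 17.3%, 7.27% and 9.15% of those of Bcl2l1 in the 4 Control libraries, and the Prmt5 KO libraries had 17.0%, 1.22%, 14.4% and 0%. The exact 95% binomial interval was 0.0309% to 6.61% in Prmt5 KO 2 (1 of 82 counts), and it reached up to 2.2% in Prmt5 KO 4 (0 of 166 counts; a limit of 3 counts would be 1.81%). Intervals treat the counts as a part of those of the transcript used, which holds only roughly where a transcript has bases of its own, and cover counting error only, as reads copied by PCR are not independent molecules. Prmt5 KO 2 and 4 were below every other library.

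Mcl1-202 covers 25.1% of the length of the Mcl1 transcript and ends with the coding region. It had 9.36%, 9.58%, 13.4% and 13.9% of the counts in the 4 Control libraries, against 8.21%, 18.2%, 18.8% and 2.42% for those of Prmt5 KO. Prmt5 KO 4 was again the lowest (9 of 372 counts, exact 95% interval 1.11% to 4.54%). Bid-205, which shares 14.6% of the length of the Bid transcript and has other bases of its own, had counts equal to 11.1% to 16.7% of those of the transcript used in 7 libraries and 3.70% in Prmt5 KO 4 (9 of 243, interval 1.71% to 6.91%).

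For Bcl2l11 the order of libraries was another one. Bcl2l11-204 shares 13.3% of the length: nearly all of the first exon, the start of the second, the third, and the start of the last. It had 14.7%, 10.3%, 5.06% and 1.42% of the counts in the 4 Control libraries, against 24.1%, 10.9%, 19.2% and 33.9% for those of Prmt5 KO. Control averaged 7.87% ± 5.84 and Prmt5 KO 22.0% ± 9.64 (SD, n = 4 each), the share with the lowest p of the 14 (0.0571, two-sided exact permutation; adjusted 0.8), and the groups overlapped. Prmt5 KO 4, the lowest library for Bcl2l1-203, Mcl1-202 and Bid-205 but not for Bcl2l1-202, Bcl2l1-209 or Bid-201, was the highest here (38 of 112 counts, exact 95% interval 25.3% to 43.5%).

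**Figure D5:**
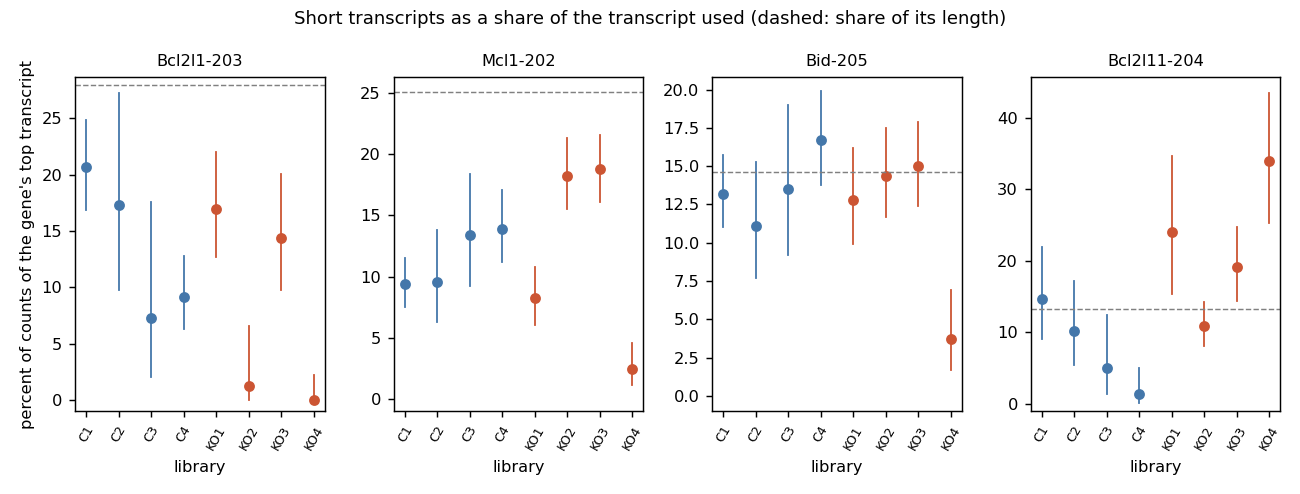
Counts of 4 short transcripts as a percent of the counts of the gene's top transcript in each library (blue Control, red Prmt5 KO; bars are exact 95% binomial intervals for counting error; the dashed line is the share of the top transcript's length that it shares). Prmt5 KO 4 is the lowest library for Bcl2l1-203 (0%), Mcl1-202 (2.42%) and Bid-205 (3.70%) and the highest for Bcl2l11-204 (33.9%).

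The genes most like 2 of the members over the 8 libraries were looked up among genes with a mean of at least 20 CPM, by Pearson correlation of log2(CPM + 0.5). For Bcl2l2, the member with the lowest p, these were Grhpr (r = 0.97) and Ddx42 (r = 0.94) of 6543 genes. For Bid, the member with the highest level per length, they were Naa10 (r = 0.98) and Chek2 (r = 0.98) of 6542 genes. These values describe 8 libraries that share their depth and preparation across genes, and are the highest among all genes compared.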

How the data were processed

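The authors deposited 1 file per library of values per Ensembl transcript, taken as raw read counts because they are whole numbers with differing totals; transcripts at 0 are not listed, and the reads were trimmed, per the file headers. The submitters' processing notes name GRCm38 and mm10, and the sources used here do not give the aligner, counter, annotation release or strand setting. Of 66262 identifiers, 64258 (97.0%) matched GENCODE M21 on GRCm38. Each gene took the counts of 1 transcript, the one whose sum over all 8 libraries was largest, so library totals are sums of these. edgeR 4.0.16 (limma 3.58.1, R 4.3.3) tested Prmt5 KO against Control after filterByExpr (minimum count 10, total 15) and TMM scaling, with the robust quasi-likelihood test and Benjamini-Hochberg adjustment at 0.05 over all 10990 genes. DESeq2 1.42.0 and limma voom were alternatives. On counts simulated for this comparison (10760 genes tested) 18.9% of simulated 2-fold changes and 71.9% of 4-fold changes were called by edgeR. No libraries were duplicates.

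The members and lists were chosen with earlier results of these data known. Named were the 10 members, Prmt5, Ccng1, Mdm2, Bax, Bbc3, Pmaip1, and, of each of 4 lists, the called genes or else the 2 with the smallest p, and the 2 genes most correlated with each of 2 members. Bcl2l14, Trp53, Diablo, Birc5, Apaf1, Vdac2 and Foxo3 were chosen after their values were seen, as were the markers Mfge8, Acta2, Col3a1 and Pax8. Other alternatives covered scaling, filter, robust estimation, replicate block, gene value and left-out libraries.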

Additional observations from a re-analysis of the deposited data

Results flagged for a closer look

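CPM of members and reference genes, marker sums and transcript shares gave 70 sets of 4 values, each from 1 group. In 7 of these sets 1 library lay far from its group by Dixon's test at the 95% level. In 4 of the 7 (Bak1 and Bad-202 in both groups) the other 3 values were tied, so that any different value is singled out. Chance flags about 1 in 20 sets of untied values, so the number 7 is not read against it. Prmt5 KO 1 was high for Bcl2 (16.5 CPM) and for the summed somatic gonad and mesonephros markers (777 CPM). Bak1 had 0.446 CPM in Control 2 (1 count) and 1.16 CPM in Prmt5 KO 2 (6 counts), with 0 in the other 6 libraries. Ccng1 was lowest among the Prmt5 KO libraries in Prmt5 KO 3 (185 CPM). Bad-202, which was at 100% of the counts of Bad-201 in the other libraries, had 88.9% (Control 2) and 104% (Prmt5 KO 2).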

How the results depend on the processing

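No BCL2 family member was called in edgeR with all libraries or under any of the 19 alternatives, including DESeq2, limma voom and the fit with no filter. The number of genes called over the whole table was 3, against 107 in DESeq2, 7 with no filter, 1 in limma voom, 1 with summed transcripts, 0 without Control 2 and Control 3, 1 without Prmt5 KO 1 and Prmt5 KO 4, and 1 to 2 with each library left out. The cause was not tested. With a replicate block 1 gene, Ccng1, was called, and the calls of Prmt5 and Mdm2 were lost (edgeR adjusted p = 0.130 and 0.155). Whether the numbers of the titles pair the libraries is not in the labels. Same-numbered libraries correlated only by 0.002 to 0.069 in their deviations from the group means. Such weak values over few libraries cannot decide it. For 3 of the 4 numbers (1, 2 and 4) the best match was the library of the same number, and for number 3 it was not. A pairing is thus left undecided.

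Signs changed for the following values, which include Bok, Rela and Bbc3 with log2 fold changes of 1.11, 1.66 and 0.51 over all libraries. Bmf was at -0.048 with upper quartile scaling, -0.057 in limma voom, -0.12 without Control 2 and Control 3, -0.35 without Prmt5 KO 1 and Prmt5 KO 4, and from -0.29 to 0.26 with each library left out. Bcl2l11 was at -0.011 with a replicate block and from -0.44 to 0.48 with each library left out, and Bok from -0.17 to 1.58. Without Prmt5 KO 1 and Prmt5 KO 4, Mcl1 was at 0.11, Bbc3 at -0.30, Rela at -0.19 and Pmaip1 at 0.12. Pmaip1 was at 0.049 without Control 2 and Control 3 and from -0.40 to 0.12 with each library left out, and Bax from -0.034 to 0.44. As a percent of summed transcript counts, the difference of Prmt5 KO minus Control was 3.10 points for Bcl2l1-202, 0.92 for Bcl2l1-209, -0.034 for Mcl1-202 and -0.54 for Bad-202. With each library left out it ran from -1.93 to 3.52 for Mcl1-202, -2.19 to 1.19 for Bid-201, -6.41 to 0.643 for Bcl2l1-209, -1.24 to 0.230 for Bid-203 and -3.31 to 0.453 for Bid-205. The cause of these changes was not tested. At this depth and spread most simulated 2-fold changes were missed (18.9% called). They were placed only in genes above a minimum mean CPM, which Bcl2l2 (mean 3.5 CPM) and Bok (mean 3.4 CPM) did not reach. The simulated rates thus do not cover Bcl2l2 and Bok. Bcl2l2, Bok, Bad and Bmf had under 100 counts in every library.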
